A study of Mus musculus with 18 samples.

Results

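The 3 ribosomal RNA (rRNA) positions listed for large RNA were described for 5-methylcytosine (m5C) in mouse testis with and without Nsun7. They are all the rows of the large RNA table, 2 positions of cytosolic 28S rRNA and 1 of mitochondrial 12S rRNA, out of 446 positions listed for the series in mRNA, small RNA and large RNA. The 28S positions are named here upstream and downstream by their order along 28S rRNA in the deposited table. Testes came from adult wild-type (WT) mice and adult Nsun7 knockout mice, with 3 large RNA libraries for each genotype. The labels name no other allele and no treatment. Strain, exact age, the type of knockout allele and the number of animals behind each library are not given in the sources used here, so the spread between libraries of a genotype may be partly technical. RNA was treated with an ultrafast bisulfite reagent, which turns unmethylated C into U, and the m5C level is the percentage of reads at a position that still show C. An unmethylated C that escaped conversion is read as m5C, and conversion efficiency was not measured here.

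m5C is set in RNA by the NOL1/NOP2/SUN (NSUN) family and by DNMT2. In mammals, 28S rRNA carries m5C at a pair of positions in the large subunit of the cytosolic ribosome, placed by NSUN5 at the upstream one and by NOP2 (also called NSUN1) at the downstream one. NOP2 is a nucleolar protein that is also needed for assembly of the large subunit. NSUN4 methylates 12S rRNA of the small subunit of the mitochondrial ribosome, and together with MTERF4 it acts in mitochondrial ribosome assembly. NSUN7 is a relative of these enzymes that is expressed in testis, and the series title calls it inactive as an RNA m5C catalyst. The table names the rRNA and the position but neither an enzyme nor the reference sequence behind its numbering. The rows are taken here as the known targets by rRNA and order alone, which was not checked against a sequence. The comparison asks whether any of these rRNA marks depends on Nsun7.

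All 3 positions were highly methylated in both genotypes, with each of the 18 library values above 80%, from 84.4% to 95.0%. Knockout minus WT, the means differed by -0.580 percentage points at the upstream 28S position, by -0.941 points at the downstream one and by 3.12 points at the 12S position. The libraries of the genotypes overlapped at each of the 3. None of the differences passed the two-sided exact permutation test over libraries (0%; Benjamini-Hochberg adjusted p = 0.6 at each position), a test whose smallest p for 3 against 3 libraries is 0.1 and which therefore cannot call a position.

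At the upstream 28S position, taken as that of NSUN5, the WT libraries showed C in 3653 of 3903 reads, 2871 of 3127 reads and 4504 of 4748 reads. The knockout libraries showed C in 3202 of 3429, 2747 of 2952 and 2947 of 3200 reads. These are levels of 93.6%, 91.8% and 94.9% in WT and of 93.4%, 93.1% and 92.1% in the knockout. The highest and the lowest of the 6 libraries were both WT, replicates 3 and 2, and the knockout libraries lay between them. WT averaged 93.4% ± 1.53 against 92.8% ± 0.669 without Nsun7 (SD, n = 3), and the exact permutation test of the difference gave p = 0.6. The 9 differences between a knockout and a WT library ran from -2.77 to 1.57 points, with 6 of the 9 below 0. This range is an exact 90% interval if both genotypes spread alike. The direction rested on WT replicate 3, without which the means differed by 0.139 points. Leaving out WT replicate 2 gave -1.38 points, and leaving out knockout replicate 3 gave -0.205 points. With the deposited levels, rounded to whole percent, it was -1 point.

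At the downstream 28S position, taken as that of NOP2, C was seen in 2655 of 2800, 2557 of 2719 and 3965 of 4175 reads in WT, which gives 94.8%, 94.0% and 95.0%. In the knockout it was seen in 2723 of 2894, 2233 of 2395 and 2491 of 2659 reads, which gives 94.1%, 93.2% and 93.7%. Knockout replicate 1 lay 0.0493 points above WT replicate 2, and this was the only one of the 9 pairs in which the knockout library was higher. WT averaged 94.6% ± 0.499 against 93.7% ± 0.428 without Nsun7 (SD, n = 3). The pairs spanned -1.73 to 0.0493 points and the exact permutation test gave p = 0.2. The sign was negative with each library left out in turn, at -1.23 to -0.725 points. Expressed through the reads that were converted, the unmethylated share was 5.39% for WT and 6.33% for the knockout.

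At the 12S position, taken as that of NSUN4, coverage was far lower. C was seen in 71 of 77, 88 of 104 and 124 of 147 reads in WT, or 92.2%, 84.6% and 84.4%. In the knockout it was seen in 71 of 79, 111 of 125 and 124 of 135 reads, or 89.9%, 88.8% and 91.9%. WT replicate 1, the shallowest library, was the highest of all 6, while WT replicates 2 and 3 were the lowest. WT averaged 87.1% ± 4.46 against 90.2% ± 1.55 without Nsun7 (SD, n = 3). The pairs spanned -3.41 to 7.50 points and the exact permutation test gave p = 0.4. Leaving out WT replicate 1 raised the difference to 5.69 points, and leaving out WT replicate 2 or 3 lowered it to 1.89 or 1.76 points. With only libraries of at least 100 reads, 2 of each genotype, it was 5.84 points. An exact binomial (Clopper-Pearson) 95% interval, which covers counting error only, ran from 83.8% to 97.1% for WT replicate 1 and from 76.2% to 90.9% for WT replicate 2. These intervals overlapped, which is not in itself a test of a difference. Whether the WT libraries differed beyond counting error was not tested.

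**Figure D1:**
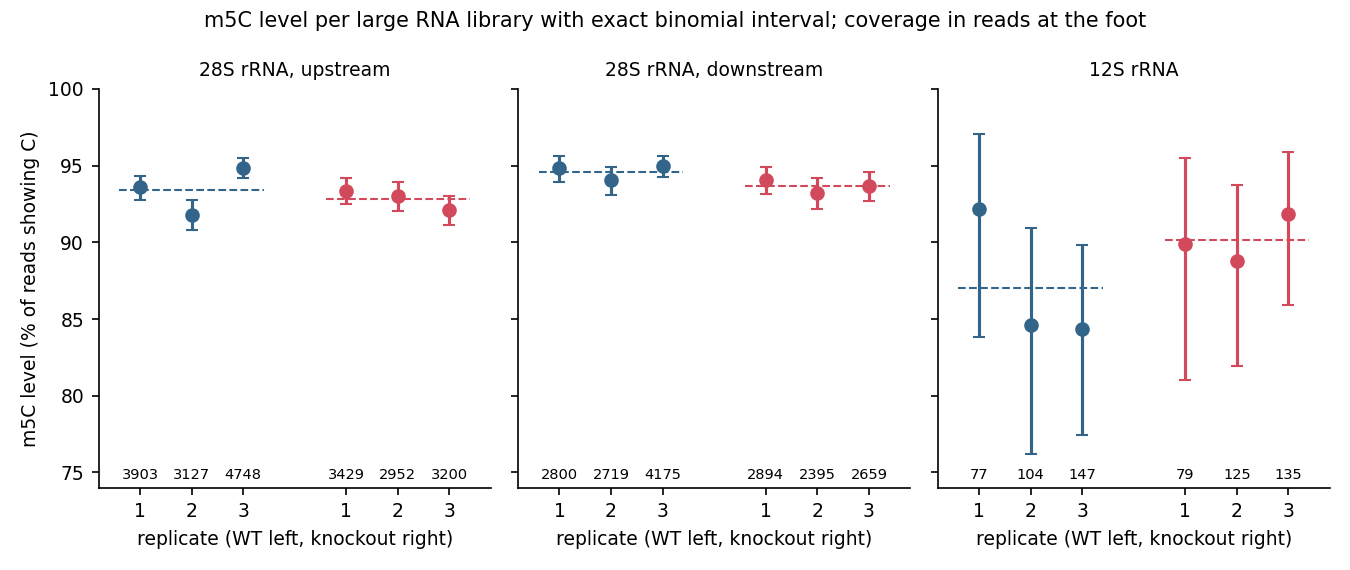
m5C level (percentage of reads showing C, axis from 74% to 100%) in each large RNA library at the 3 rRNA positions, WT in blue and knockout in red, with exact binomial 95% intervals, dashed genotype means and the coverage in reads printed at the foot. The 28S values sit between 91.8% and 95.0% with narrow intervals, and the 12S values between 84.4% and 92.2% with wide ones.

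No position lost most of its methylation in the knockout. The lowest knockout library stood at 97.1% of the highest WT library at the upstream 28S position, at 98.2% at the downstream one and at 96.3% at the 12S position. Averaged over both 28S positions, WT had 94.0% ± 1.01 against 93.3% ± 0.435 without Nsun7 (SD, n = 3). The pairs spanned -2.03 to 0.808 points and the exact permutation test gave p = 0.3. The difference of those averages, -0.761 points, became -1.31 when WT replicate 2 was left out and -0.311 when WT replicate 3 was.

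**Figure D2:**
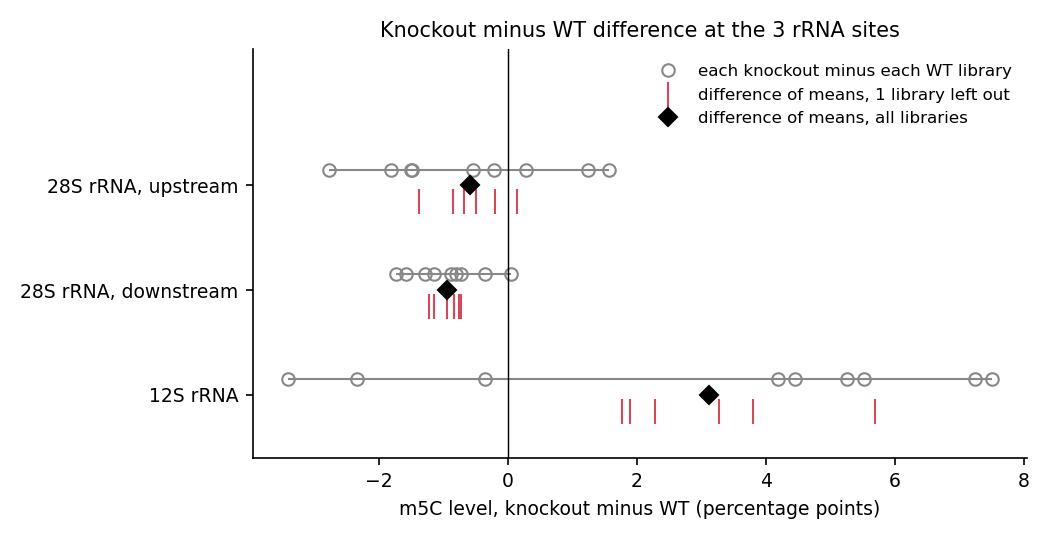
Knockout minus WT difference in m5C level (percentage points) at the 3 rRNA positions: open circles are the 9 differences between single libraries, red ticks the difference of means with 1 library left out, diamonds the difference of means with all libraries. The circles cross 0 at each position, by 0.0493 points at the downstream 28S position, and the ticks cross 0 at the upstream one.

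How the 28S differences were judged depended on whether libraries or reads were counted as the units. With the reads of each genotype pooled, the upstream 28S position stood at 93.6% of 11778 reads in WT and 92.9% of 9581 reads in the knockout. The downstream one stood at 94.7% of 9694 and 93.7% of 7948 reads. Fisher's exact test on those pooled reads called 2 of the 3 positions (66.7%), with Benjamini-Hochberg adjusted p of 0.0363 upstream, 0.0192 downstream and 0.118 for 12S. That test takes every read as independent and leaves out the spread between libraries. A quasi-binomial logistic model, which scales the counting error by the spread seen between libraries, called 0 of the 3 (0%), with adjusted p of 0.479, 0.189 and 0.256 and 0 positions at an unadjusted p under 0.05. Its odds of C in the knockout relative to WT were 0.883 at the upstream 28S position (95% interval 0.568 to 1.37), 0.837 at the downstream one (0.691 to 1.02) and 1.47 at the 12S position (0.770 to 2.82).

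The spread itself was not alike at the positions. In WT at the upstream 28S position the chi-square statistic of the 3 libraries was 14.7 per degree of freedom, where counting error alone gives about 1. The SD there was 1.53 points, beside 0.395 points from counting. For the knockout the statistic was 2.20. At the downstream position it was 1.50 for WT and 0.812 for the knockout, and at the 12S position 1.49 and 0.353. The same libraries and the same rRNA molecule thus gave a wide WT spread at the upstream position and a narrow one downstream. The WT SD was larger than the knockout SD at all 3 positions, a difference that was not tested. Among the 42 small RNA positions with at least 2395 reads in every library, the WT SD had a median of 0.642 points and ran from 0.0463 to 3.06. It was above the SD of the upstream 28S position at 11 of them. Those 11 had WT levels of 14.9% to 86.9%, and an SD in points depends on the level. Of the 42, those with a higher WT level than the upstream 28S position had WT SDs of up to 0.848 points. That largest one was at mitochondrial tRNA-Ser2, where coverage was 103968 reads or more. Mitochondrial tRNA-Leu1 at 2725, with 2087 to 3333 reads, was not among the 42. Its WT level was 94.7% and its WT SD 1.01 points. These spreads were not tested.

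**Figure D3:**
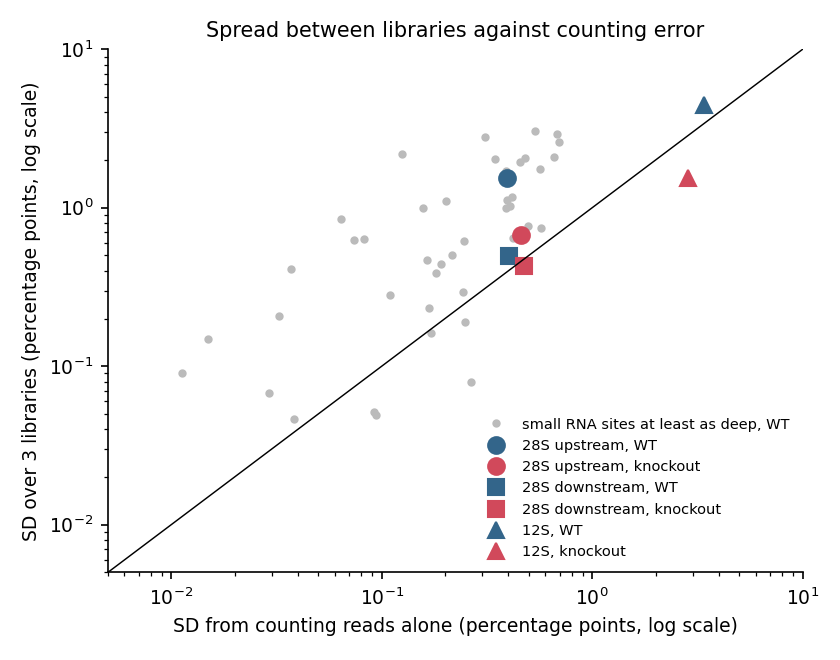
SD of the m5C level over the 3 libraries of a genotype against the SD that counting reads alone would give (both in percentage points, log scales); the line marks equality, large symbols are the rRNA positions and grey dots the WT values of the 42 small RNA positions at least as deep. The upstream 28S position in WT lies above the line (1.53 against 0.395), while the downstream one and 12S lie near or below it.

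Within each library the 3 positions kept an order. The downstream 28S position was higher than the upstream one in 6 of 6 libraries, by 1.01 ± 0.831 points (SD, n = 6; exact sign-flip p = 0.03125, the smallest that 6 libraries can give). The gap was 1.23, 2.23 and 0.109 points in the WT libraries and 0.711, 0.180 and 1.59 points in the knockout libraries, so it was near 0 in WT replicate 3 and knockout replicate 2. The 12S position was below the mean of both 28S positions in 6 of 6 libraries, with a mean difference of -5.02 ± 3.70 points and a range of -10.6 to -1.04 (SD, n = 6; exact sign-flip p = 0.03125). Adjusted over these 2 comparisons p stayed 0.03125. In WT replicate 1 and every knockout library, the exact binomial 95% interval of 12S took in the 28S mean of that library. The gap of 12S to 28S averaged -6.96 points for WT and -3.08 points for the knockout. Those genotype values differed by 3.88 points, the pairs spanned -2.35 to 9.53 and the exact permutation test gave p = 0.3. Leaving out WT replicate 1 gave 6.36 points and leaving out WT replicate 3 gave 2.07 points. With at least 100 reads per library it was 6.75 points.

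Across the 6 libraries the levels of both 28S positions had a Pearson r of 0.660 (exact permutation p = 0.142) and a Spearman rho of 0.771 (exact permutation p = 0.103). After Benjamini-Hochberg adjustment over the 3 pairs of positions these p were 0.425 and 0.308. Without the 2 libraries farthest from the median at the upstream position, WT replicates 3 and 2, r was 0.578. With the 12S position, r was -0.184 for the upstream and -0.211 for the downstream 28S position (exact permutation p = 0.710 and 0.671) and rho was -0.0286 and -0.143 (exact permutation p = 1 and 0.803). Without WT replicates 3 and 2, the farthest from the median upstream, r was -0.175 for the upstream position. Without WT replicate 3 and knockout replicate 2, the farthest downstream, r was 0.243 for the downstream position, so its sign rested on those 2 libraries. No relation passed the threshold.

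Coverage says how many reads lay over each position, and it depends on fragmentation and conversion as well as on the amount of RNA. In bulk tissue a change in the mix of cells and a change of RNA per cell cannot be told apart. Coverage summed over the 3 positions was 5950 to 9070 reads for WT and 5472 to 6402 for the knockout. For every 100 reads at the 28S positions (their mean), the WT libraries had 2.30, 3.56 and 3.29 reads at the 12S position and the knockout libraries had 2.50, 4.68 and 4.61. Replicate 1 was the lowest of its genotype in both cases, and the genotypes overlapped. On the log2 scale the knockout minus WT difference of this ratio was 0.33, the pairs spanned -0.51 to 1.03 and the exact permutation test gave p = 0.5. It was 0.63 without knockout replicate 1, and 0.14, 0.18 and 0.19 without WT replicate 1, knockout replicate 2 and knockout replicate 3. Coverage at the downstream 28S position relative to the upstream one was 0.717, 0.870 and 0.879 for WT and 0.844, 0.811 and 0.831 for the knockout (log2 difference 0.018, exact permutation p = 1). WT replicate 1 was the lowest of the 6 libraries in that ratio, and leaving it out gave a log2 difference of -0.078.

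**Figure D4:**
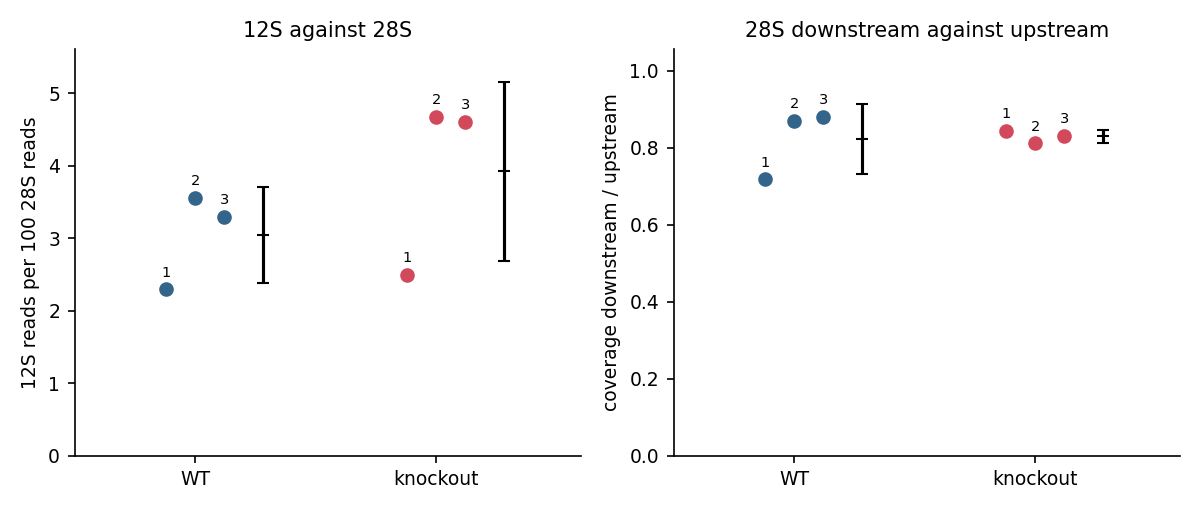
Left, reads at the 12S position per 100 reads at 28S (mean of both positions); right, coverage at the downstream 28S position divided by that at the upstream one. Points are libraries labelled by replicate, bars the mean ± SD of 3 libraries; the left panel runs from 2.30 to 4.68 with both replicates 1 lowest in their genotype, and on the right WT replicate 1 is lowest at 0.717.

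Set among the other listed positions, the rRNA marks were among the higher levels. Of 251 mRNA positions, 0 had a higher WT level than either 28S position, and 1 had a higher WT level than the 12S position. That one lies in Bag6, which encodes a chaperone, and is named after its values were seen. Of 192 small RNA positions, which are mostly in tRNA, 52 stood above the upstream 28S position, 45 above the downstream one and 77 above the 12S position. Many small RNA positions also differed more between genotypes. A larger difference in either direction was seen at 139 of the 192 for the upstream 28S position, at 119 for the downstream one and at 60 for the 12S position. These counts mix positions of all depths. With 77 to 147 reads in every library, as at 12S, 4 of 11 mRNA positions and 0 of 1 small RNA position differed more than 12S did. Those mRNA positions had a median WT level of 9.80%, so they were not matched for level. Among the 42 small RNA positions at least as deep as the 28S ones, the median size of the difference was 0.337 points. It was above that of the upstream 28S position at 15 and above that of the downstream one at 7. Those 7 had WT levels of 14.9% to 87.2%, so they were not matched for level. Of the 42, those with a higher WT level than the downstream 28S position differed less than it did. The largest such difference was -0.429 points, at tRNA-Leu-CAA-4-1 with 27024 reads or more. All of those positions were deeper than the downstream 28S position, so counting error is smaller at them. They had at least 5110 reads per library, beside 2395 to 4175. Mitochondrial tRNA-Leu1 at 2725 was not among the 42, as coverage there was 2087 to 3333 reads. Its WT level was 94.7% and its difference -0.809 points. These differences were not tested. WT and knockout libraries lay wholly apart at 11.6% of mRNA and 11.5% of small RNA positions. At such shares 0 of the 3 rRNA positions does not set them apart.

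**Figure D5:**
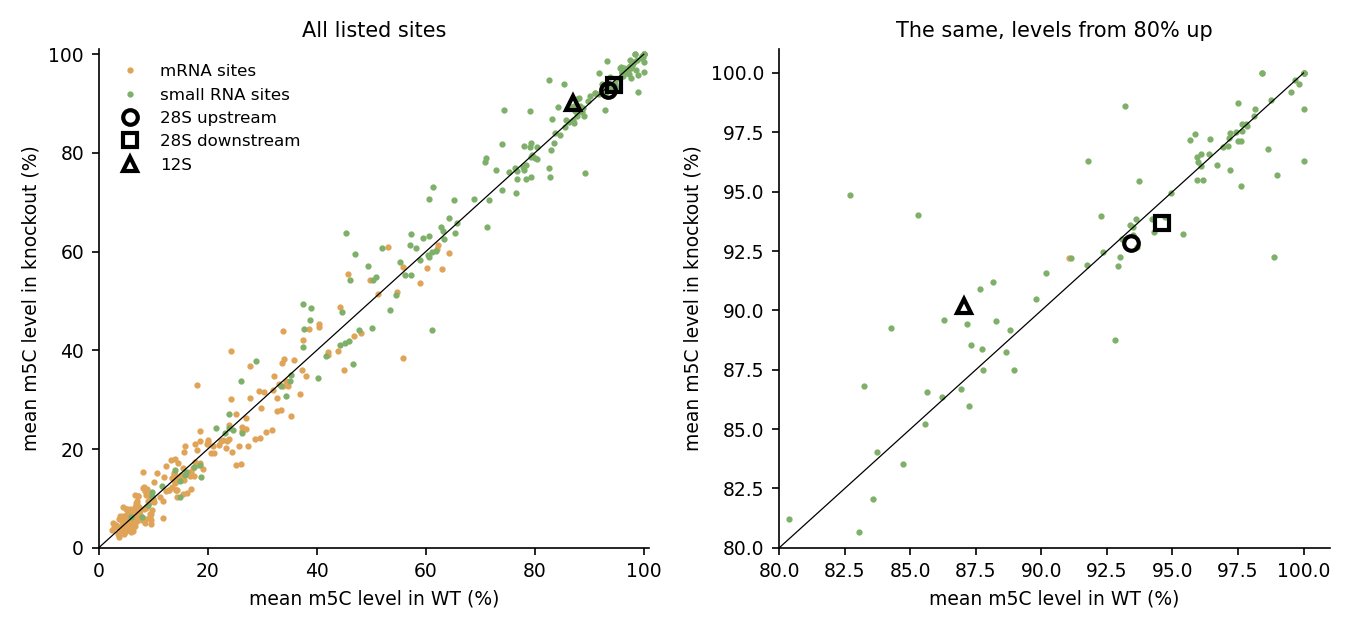
Mean m5C level in the knockout against WT (both in %, 3 libraries each) for the 251 mRNA, 192 small RNA and 3 rRNA positions, over the full range on the left and from 80% up on the right; the line marks equality. The rRNA symbols lie in the upper corner, both 28S positions just below the line and 12S above it.

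Other mitochondrial RNA was read in the small RNA libraries, at 8 positions of 6 mitochondrial tRNAs, and stands beside 12S rRNA as a measure in different libraries. The position of mitochondrial tRNA-Met at 3888 of the mitochondrial genome averaged 90.2% ± 1.49 for WT and 91.6% ± 1.83 for the knockout (SD, n = 3). The position of tRNA-Leu1 at 2725, at a coverage of 2087 to 3333 reads, averaged 94.7% ± 1.01 for WT and 93.9% ± 0.419 for the knockout (SD, n = 3). Differences were above 0 at 5 of the 8 positions and below 0 at 3, and the median was 0.813 points. Libraries lay apart at 1 of the 8, tRNA-Met at 3875 with 55.2% for WT and 57.9% for the knockout, beside the 11.5% of all small RNA positions. Its difference of means was 2.71 points and was not tested. The counting SD of a single library there was 2.86 points for WT and 2.85 points for the knockout. Those values are for single libraries. The counting SD of a difference between means of 3 libraries was not computed. Whether 2.71 points exceeds counting error is therefore not known here.

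None of the 8 genes for RNA m5C enzymes looked for in the mRNA table, Nop2, Nsun4, Nsun5 and Nsun7 among them, had a listed position. The same held for 6 genes of m5C binding or removal, such as Alyref and Ybx1, and for 12 genes of rRNA processing and modification, such as Fbl, which encodes the rRNA methyltransferase fibrillarin. The tables thus give no measure of the enzymes at the rRNA positions and none of the loss of Nsun7. As to the tissue, 5 of 10 germ cell genes had a listed mRNA position (Adam2, Cfap43, D1Pas1, Piwil1 and Septin12). So did 1 of 3 Leydig cell genes (Insl3) and 1 of 3 Sertoli cell genes (Amhr2). The lists were chosen with earlier results of these data known, so these shares do not measure the mix of cells. A listed position shows that a transcript over it was covered, not its amount. The Insl3 position, 72142024 on chromosome 8, is listed under Jak3 for small RNA, so its gene name is not settled by the position.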

How the data were processed

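Large RNA of testis was read by bisulfite sequencing in 3 WT and 3 Nsun7 knockout libraries. Per the labels' protocols, TRIzol RNA was split into large and small RNA on columns, and converted large RNA was fragmented before a small RNA library kit. GRCm39 is the build, and the tools are HISAT2, Bowtie2, cutadapt, SAMtools and Trimmomatic, per the submitters' processing notes; versions, and how positions were chosen, are not given in the sources used here. Coverage and C counts are read counts deposited by the authors without normalization. The m5C level is deposited by the authors as a fraction rounded to 2 decimals, and differed from C count over coverage by at most 0.00405.

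Levels were recomputed from the counts as percentages, with no coverage minimum. Samples were grouped by title. Genotypes were compared by two-sided exact permutation tests over the 10 splits of 6 libraries, with Benjamini-Hochberg adjustment over the 3 positions and a threshold of 0.05. Positions within libraries were compared by exact sign-flip tests. Alternatives were a quasi-binomial logistic model, Fisher's exact test on pooled reads, log odds (0.5 added to each count), deposited levels, coverage of at least 100, replicate blocks and each library left out. Tests were tried on simulated data with Python 3.11.15 and scipy 1.17.1. All rRNA positions are named, with listed mRNA positions of set gene lists and mitochondrial positions; members and lists were chosen with earlier results of these data known. Coverage of 77 to 147 reads at 12S gives 95% intervals of 4.99 to 7.36 points either way on single libraries, and 2395 to 4748 reads at 28S gives 0.639 to 1.03 points. Reads carried no stated molecular identifiers, so copies of the same molecule may count as separate reads and the intervals may be too narrow. The intervals cover counting error of reads only. Unmapped per-sample columns numbered 0. rRNA sequences were not used here.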

Additional observations from a re-analysis of the deposited data

How the results depend on the processing

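Of 93 recomputed differences, 91 had the sign of the value reported. Some of the 93 could not change sign. The mean over same-numbered pairs equals the difference of means, and no 28S position had under 100 reads in a library. The count is therefore not a measure of stability. Of the 81 values that kept their outcome, counts of positions called among them, 62 came from tests that could not go below the threshold. That those 62 did not pass it says nothing about stability. Pooling reads within genotype moved the number of positions called from 0 to 2, with differences of -0.782 points at the upstream and -0.970 points at the downstream 28S position (Fisher's exact test). The within-library gaps lost the threshold in every smaller set, where the smallest exact sign-flip p is 0.25 for 3 libraries and 0.0625 for 5. Downstream minus upstream 28S was 1.19 points in WT alone and 0.827 in the knockout alone, and 0.763 to 1.19 with 1 library left out. 12S minus mean 28S was -6.96 and -3.08 points, and -5.82 to -3.91. With 1 library left out, the difference at the upstream 28S position ran from -1.38 to 0.139 points, turning without WT replicate 3, and that at the 12S position from 1.76 to 5.69. The log2 coverage ratio of downstream to upstream 28S ran from -0.078 to 0.069, turning without WT replicate 1. The quasi-binomial model called 0 positions in each set of 5 libraries. With coverage of at least 100 reads, which left 2 libraries of each genotype at 12S, the 12S difference was 5.84 points and that of the 12S minus 28S gap 6.75 points. The deposited levels gave -1 point at the upstream 28S position.

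Same-numbered libraries were not taken as paired. Their standardised deviations correlated at -0.767, -0.191 and -0.955, each over the 3 positions only. In the quasi-binomial model with a replicate block, the log odds differed by -0.115, -0.176 and 0.397 at the upstream 28S, downstream 28S and 12S positions, with unadjusted p of 0.606, 0.0387 and 0.267, and 0 positions passed after adjustment (0.116 downstream). The spread left in that model at the downstream position was 0.301 of the counting variance. Its p there thus rests on an error smaller than counting alone gives. Same-numbered libraries differed downstream by -0.730, -0.806 and -1.29 points (p = 0.25 by exact sign-flip, which is the smallest for 3 pairs).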

Other observations

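Between same-numbered libraries the log2 coverage ratio of 12S to 28S was above 0 for knockout minus WT in 3 of 3 pairs, at 0.12, 0.39 and 0.48 (p = 0.25 by exact sign-flip, which is the smallest for 3 pairs). The numbers are not known to mark shared animals or days.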
